A study of Caenorhabditis elegans with 2 samples.

Results

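The calls described here are peaks of a chromatin immunoprecipitation followed by sequencing (ChIP-seq) of the protein F55B11.4 whose summits lie in the piRNA clusters of Caenorhabditis elegans chromosome IV. They were chosen by position alone: the summit had to lie from 4500 to 7000 kb (the left cluster) or from 13500 to 17200 kb (the right cluster) on genome build ce11. The list of replicate 1 had 1089 such calls among 3334 on chromosome IV and 21050 in all. The list of replicate 2 had 746 among 2334 on the chromosome and 14257 in all, and the list called on the pooled replicates had 26 among 90 and 670 in all. None of the 48 peaks that the authors kept as the optimal set by irreproducible discovery rate (IDR) lay in the clusters, which allows a density of up to 0.595 per Mb (exact Poisson 95% limit), and 2 lay elsewhere on the chromosome. The 2 replicates form the only group: whole young adult hermaphrodites of strain OP385, genotype unc-119(tm4063) III with the inserted transgene wgIs385, collected 65 hours after they had been synchronized as starved L1 larvae. The transgene encodes F55B11.4 with GFP and FLAG at its C terminus, and sonicated chromatin was precipitated with an antibody to GFP. Both replicates carry the tag, the unc-119 mutation and the transgene, and the sources used here do not name the promoter that drives the tagged gene. All tissues of the animal were combined, so a site bound in few cells is diluted by the rest.

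Piwi-interacting RNAs (piRNAs) of this nematode are made in the germ line from a great many short genes, each of which RNA polymerase II transcribes by itself. The RNAs begin with a uridine, are bound by the Argonaute protein PRG-1, and direct the silencing of foreign and selfish sequences. Most of the genes of the largest class carry an upstream element, the Ruby motif, and lie between or within ordinary genes in the clusters on chromosome IV.

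The clusters held 14204 of the piRNA genes annotated on chromosome IV, 2816 in the left and 11388 in the right, and the rest of the chromosome held 510. Per megabase this was 2291 piRNA genes in the clusters against 45.2 outside. Protein-coding genes were sparser in the clusters, with 152 per Mb against 207, and GC content was lower, at 33.0% against 35.5%. The core of the Ruby motif, CTGTTTCA, stood on the sense strand within the 60 bases upstream of 4944 cluster piRNA genes (34.8%). Its first base was at a median of 46 bases before the 5′ end. The first base of the RNA was T in the genome for 96.2% of the 14204 genes, so the annotation has the known start of these RNAs. The following sequences, from the RefSeq assembly WBcel235 (ce11), are the nearest piRNA genes of the named cluster calls among the 10 strongest pooled calls and the 15 best sites shared by both replicates, described below. Each is given 5′ to 3′ on its own strand with its 60 upstream bases in lower case. Capitals mark the 21 bases of the piRNA and, where present, the CTGTTTCA word.
21ur-5731 (chrIV:16536507-16536587, minus strand): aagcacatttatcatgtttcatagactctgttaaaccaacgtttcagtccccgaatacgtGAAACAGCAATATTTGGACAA
21ur-4343 (chrIV:16536118-16536198, minus strand): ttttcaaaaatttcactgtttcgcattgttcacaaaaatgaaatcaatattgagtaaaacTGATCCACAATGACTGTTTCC
21ur-9842 (chrIV:14433906-14433986, plus strand): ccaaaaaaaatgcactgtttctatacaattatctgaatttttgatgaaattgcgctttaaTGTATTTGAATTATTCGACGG
21ur-8307 (chrIV:5821881-5821961, plus strand): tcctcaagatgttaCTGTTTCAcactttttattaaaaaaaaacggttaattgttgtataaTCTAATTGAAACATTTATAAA
21ur-2999 (chrIV:5719745-5719825, plus strand): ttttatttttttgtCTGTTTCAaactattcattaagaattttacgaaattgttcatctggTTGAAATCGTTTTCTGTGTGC
21ur-2220 (chrIV:13830638-13830718, plus strand): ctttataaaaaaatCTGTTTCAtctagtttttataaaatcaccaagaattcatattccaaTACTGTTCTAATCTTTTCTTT
21ur-8548 (chrIV:5407543-5407623, plus strand): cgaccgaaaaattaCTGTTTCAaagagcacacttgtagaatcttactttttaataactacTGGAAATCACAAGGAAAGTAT
In the last 4 the word begins 46 bases before the piRNA. In the first 3 the exact word is absent from these windows.

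Each deposited call has a signal value, a score of its strength from the authors' peak caller, with no stated scale. The lists of the single replicates are permissive and, by the deposited notes, include background. Among the cluster calls the median −log10 of the q-value was 0.0765 in replicate 1 and 0.0709 in replicate 2, and the highest were 0.870 and 1.00. Numbers of reads were not analysed here, so the depth behind a call is unknown. No test over samples was made, since an exact two-sided sign-flip test over 2 replicates cannot give a p below 0.5. Differences are set against the spread between the replicates, and the intervals given are exact 95% intervals (Poisson for densities, Clopper-Pearson for shares) that cover the counting of calls only.

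Calls were slightly sparser in the piRNA clusters than in the rest of chromosome IV. In replicate 1 there were 176 calls per Mb in the clusters (interval 165 to 186) and 198.8 outside (191 to 207). In replicate 2 there were 120 (112 to 129) and 141 (134 to 148). The ratio was 0.884 in replicate 1 and 0.856 in replicate 2, a mean of 0.870 ± 0.0197 (SD, n = 2), so both replicates lay below 1 by more than their spread. In the pooled list the densities were 4.19 and 5.67 per Mb, with intervals that overlap (2.74 to 6.14 and 4.36 to 7.24). The clusters took 32.7% of the calls of replicate 1 on the chromosome, 31.96% of those of replicate 2 and 28.9% of the pooled calls, and made up 35.4% of its length.

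Both clusters had similar densities within counting error, and the right cluster stood below the centre of the chromosome in both replicates. The left cluster had 186 calls per Mb in replicate 1 and 128 in replicate 2, and the right cluster, with the larger number of piRNA genes, had 168 and 115.4. The centre between them had 205 and 141, and the left end of the chromosome 187 and 142. In replicate 1 the left cluster and the left end did not differ beyond their counting intervals. At the bounds of the clusters there was no step of one sign: the 100 kb just inside the 4 bounds held 13 to 20 calls of replicate 1 and the 100 kb just outside 11 to 30. In replicate 2 these ranges were 12 to 16 and 11 to 21. The other nuclear chromosomes had 185 to 254 calls per Mb in replicate 1 and 136 to 148 in replicate 2, all above the clusters.

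**Figure D1:**
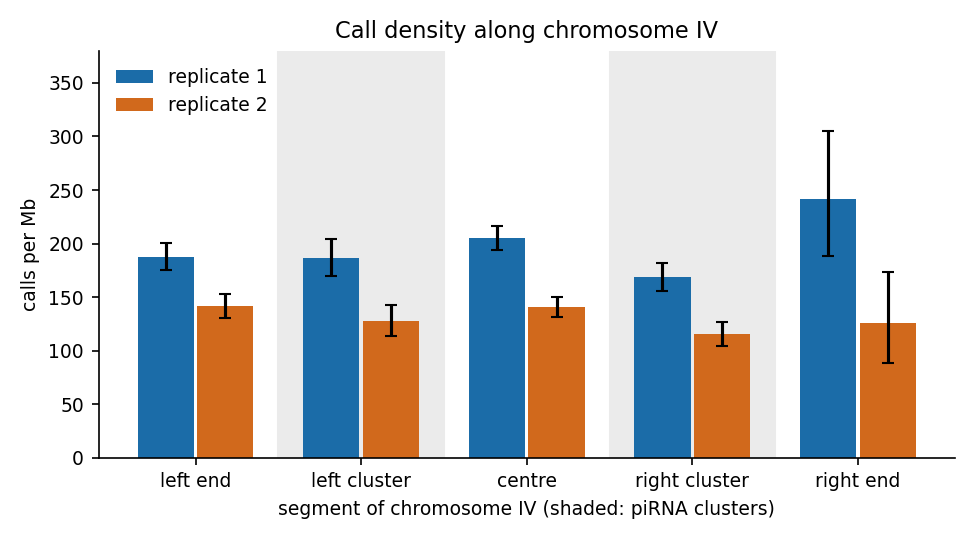
Calls per Mb (vertical axis) in 5 segments of chromosome IV from its left to its right end, for replicate 1 (blue) and replicate 2 (orange); bars are the densities, error bars exact Poisson 95% intervals, and the piRNA clusters are shaded. The right cluster has the lowest density in each replicate, 168 and 115.4 per Mb, and the short right end has the widest intervals.

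Base composition moved with this difference. Call density rose with the GC content of the 201 bases around a position, in the clusters from 109 per Mb of sequence under 25% GC to 337 per Mb of sequence at 45% or more in replicate 1, and from 72.1 to 226 in replicate 2. Within each of 6 GC ranges, the density in the clusters over that in the rest of the chromosome was 0.875 to 0.993 in replicate 1 and 0.776 to 1.22 in replicate 2. With the rates of the rest of the chromosome in each GC range, the clusters would have held 1126 calls in replicate 1, against 1089 found, and 777 in replicate 2, against 746 found. The ratio of found to so computed calls was 0.964 ± 0.00494 (SD, n = 2). When positions at which over 50% of the surrounding 32-base words occur elsewhere in the genome were left out as well, the ratio was 0.999 ± 0.00703, at 0.994 in replicate 1 and 1.00 in replicate 2. Such repeated positions made up 10.96% of the clusters but held 2.296% of their calls in replicate 1 and 0.804% in replicate 2. Both of these comparisons within GC ranges were added after the data had been seen.

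**Figure D2:**
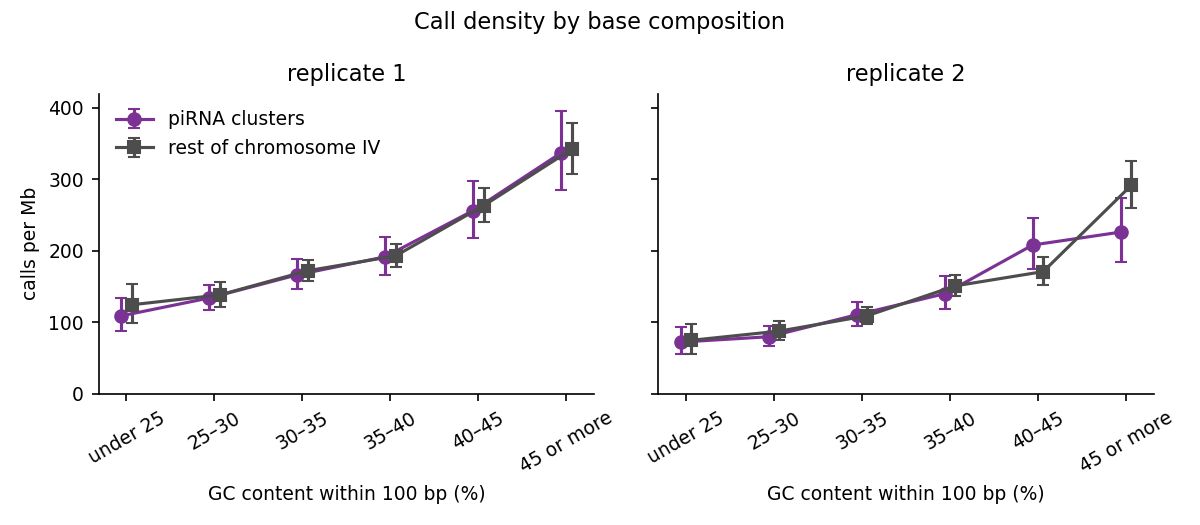
Calls per Mb (vertical axis) by GC content of the surrounding sequence in percent (horizontal axis, 6 ranges) for replicate 1 (left) and replicate 2 (right), in the piRNA clusters (circles) and the rest of chromosome IV (squares); error bars are exact Poisson 95% intervals. In replicate 1 the clusters and the rest lie on nearly the same line, and in replicate 2 the order of the 2 changes several times along the axis.

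Calls were not concentrated at the piRNA genes. A piRNA gene lay within 500 bp of 630 of the 1089 summits of replicate 1 (57.9%, interval 54.9 to 60.8) and of 417 of the 746 of replicate 2 (55.9%, interval 52.3 to 59.5). Of all cluster positions, 62.2% were this close to a piRNA gene. The difference was −5.30 ± 1.38 percentage points (SD, n = 2), negative in both replicates and in both clusters. Among the strongest 10% of each list it was −16.5 points, at −11.2 in replicate 1 and −21.8 in replicate 2. Over all calls it was −4.45 points in the left cluster and −3.18 in the right in replicate 1, and −9.24 and −3.03 in replicate 2. As densities, sequence within 500 bp of a piRNA gene had 163 calls per Mb in replicate 1 and the remaining cluster sequence 196, and in replicate 2 these were 108 and 140. In the pooled list 10 of the 26 summits (38.5%, interval 20.2 to 59.4) were near a piRNA gene. In the rest of chromosome IV, where piRNA genes are rare, 3.52% and 3.34% of the summits were near one, against 3.41% of positions.

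This shortfall also moved with base composition and repeats. Set against positions with the same GC content as the calls, the share near a piRNA gene was 1.35 ± 0.468 points higher (SD, n = 2), the opposite sign. With repeated positions left out and no GC matching the difference was −9.83 points, and with both it was −2.16 ± 0.320 points. Repeated sequence was most common in the parts of the clusters with few piRNA genes. The sign of the difference at piRNA genes thus rests on how composition and repeats are treated. The strongest 10%, the pooled calls and the sites shared by both replicates were not matched for GC content. The median GC content around the pooled cluster summits was 41.5%, against 31.8% for cluster positions.

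The number of piRNA genes nearby gave the same order in both replicates. In 10 kb tiles with no piRNA gene there were 202 calls per Mb in replicate 1 and 151 in replicate 2. In tiles with 1 to 9 piRNA genes there were 185 and 133, and in tiles with 10 to 19 there were 180 and 120. With 20 to 39 there were 167 and 110, and with 40 or more 161 and 107. The GC content of the same tiles fell from 36.4% to 29.9%, the share of positions near a protein-coding 5′ end from 28.6% to 9.43%, and the share of repeated positions from 14.96% to 4.73%. The part of each in the order was not tested.

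**Figure D3:**
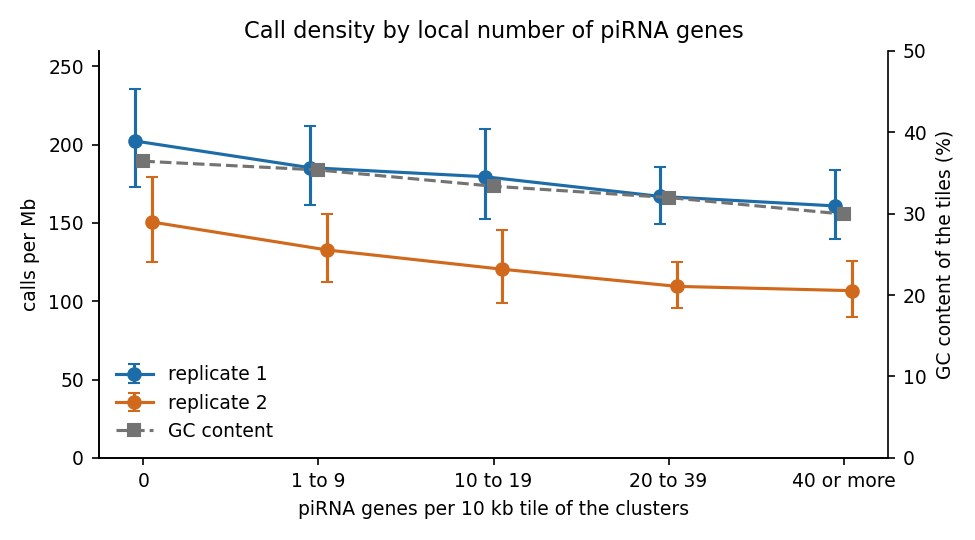
Calls per Mb (left axis) in 10 kb tiles of the clusters grouped by their number of piRNA genes (horizontal axis), for replicate 1 (blue) and replicate 2 (orange) with exact Poisson 95% intervals; grey squares give the GC content of the tiles in percent (right axis). Densities fall from 202 and 151 per Mb with no piRNA gene to 161 and 107 with 40 or more, while GC content falls from 36.4% to 29.9%.

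Along the piRNA genes themselves the profile had no peak at the 5′ end. In the 100 bp before the 5′ ends of the 14204 genes, call density was 0.858 times the cluster mean in replicate 1 and 0.743 times in replicate 2. In the first 100 bp downstream it was 0.830 and 0.755 times the mean. Around the 1426 5′ ends of protein-coding transcripts in the clusters, the 100 bp upstream had 1.32 times the cluster mean in replicate 1 and 1.92 times in replicate 2, and the 100 bp downstream 1.52 and 0.874 times. Over all 100 bp steps the coding values rest on 16 to 42 pairs of a call and a 5′ end in replicate 1 and 8 to 33 in replicate 2, where a call can pair with several 5′ ends, and they scatter between replicates.

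**Figure D4:**
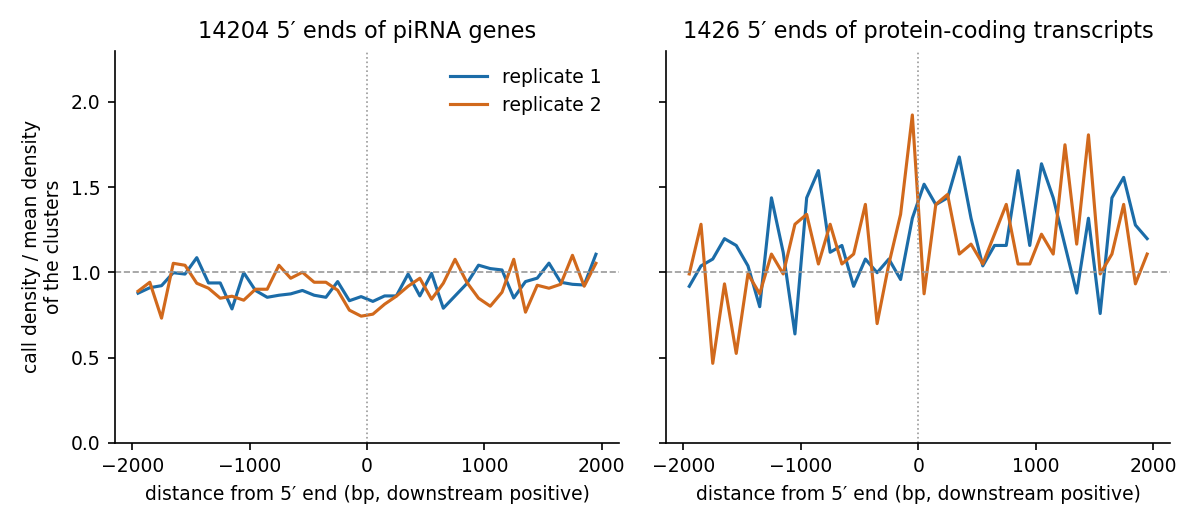
Call density divided by the mean density of the clusters (vertical axis, no unit) in steps of 100 bp by distance in bp from the 5′ ends of piRNA genes (left) and of protein-coding transcripts (right), downstream positive, for replicate 1 (blue) and replicate 2 (orange); the dashed line is the cluster mean. The piRNA profile stays near or under 1 around the 5′ end, at 0.858 and 0.743 in the last 100 bp before it, and the coding profile is mostly above 1 with wide scatter.

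The upstream word was no more common at the calls than in the clusters at large. Within 100 bp of the summit, CTGTTTCA occurred on either strand in 13.4% of the cluster calls of replicate 1 (interval 11.44 to 15.6) and in 11.3% of those of replicate 2 (interval 9.08 to 13.8). All cluster windows of that length held it in 14.6% of cases. In the rest of the chromosome the word was in 1.69% and 1.57% of the call windows and in 1.55% of all windows. Sequence within 500 bp of the 4944 piRNA genes with the word had 160 calls per Mb in replicate 1 and 99.6 in replicate 2. For the 9260 genes without it the values were 163 and 106. Within 100 bp the order was the other way, at 167 and 97.6 with the word and 139 and 94.99 without it. The counting intervals overlapped at both distances in each replicate. Some sequence is close to genes of both kinds and counts for each. Of the 14204 piRNA genes, 1986 (13.98%) had a call of replicate 1 within 500 bp of the 5′ end, 1420 (9.997%) one of replicate 2, and 290 (2.04%) one of each. Of all cluster positions, 15.8%, 11.3% and 3.26% had these.

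The share near piRNA genes was no higher among the stronger calls. Among the 218 strongest cluster calls of replicate 1 the share within 500 bp of a piRNA gene was 55.5%, and among the 217 weakest it was 55.8%. In replicate 2 it was 46.0% among the 150 strongest (interval 37.8 to 54.3) and 63.8% among the 149 weakest (interval 55.5 to 71.5). The order by strength thus differed between the replicates, and that difference was not tested.

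**Figure D5:**
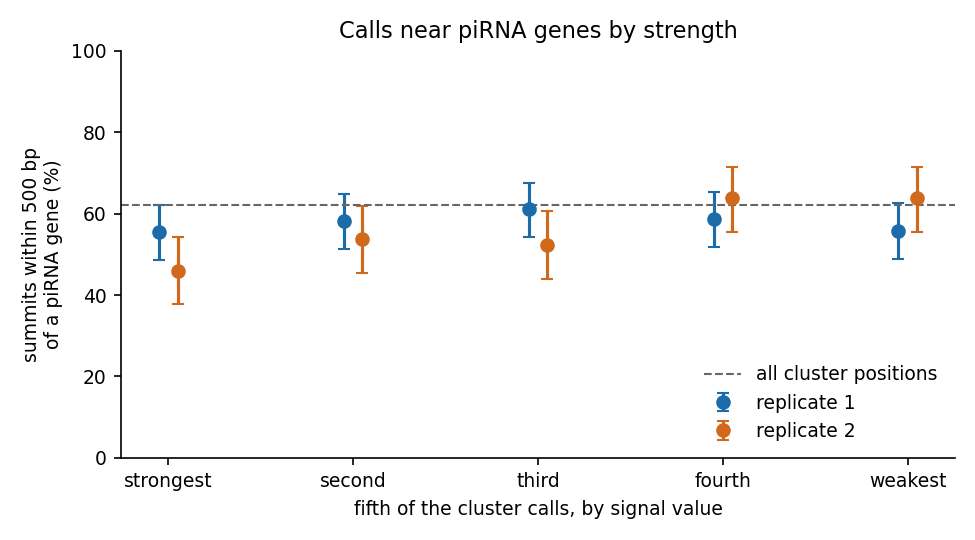
Share of cluster summits within 500 bp of a piRNA gene in percent (vertical axis) in 5 equal groups of calls from the strongest to the weakest signal value (horizontal axis), for replicate 1 (blue) and replicate 2 (orange) with exact 95% intervals; the dashed line is the share of all cluster positions, 62.2%. The strongest group of replicate 2, at 46.0%, is the lowest point, and all groups of replicate 1 lie between 55.5% and 61.01%.

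Cluster calls lay inside protein-coding genes more than cluster sequence as a whole. The shares were 57.6% in replicate 1 and 57.1% in replicate 2, against 49.4% of positions. Near protein-coding 5′ ends the excess was less clear, and in replicate 2 its interval included the share of positions. By cluster, only the right one in replicate 1 had an interval above that share (22.2%, interval 18.9 to 25.6, against 15.7%). Within 500 bp of a protein-coding 5′ end were 259 summits of replicate 1 (23.8%, interval 21.3 to 26.4) and 158 of replicate 2 (21.2%, interval 18.3 to 24.3), against 18.7% of positions. Outside the clusters the shares were 27.7% and 28.4%, against 25.2% of positions. The clusters were lower by 5.57 ± 2.33 points (SD, n = 2), and 2.17 points lower when the distance was 100 bp. Divided by the share of positions, however, the clusters had 1.27 and 1.13 and the rest 1.10 and 1.13. Coding exons held 23.0% and 22.5% of the cluster summits against 16.02% of positions, and intergenic sequence held 29.9% and 29.5% against 38.1%. Coding exons outside the clusters also held more summits than positions (31.9% and 29.6% against 24.0%). The part of GC content and repeats in these shares was not tested.

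The place within coding genes and the distance to piRNA genes were then crossed. Between genes, sequence near and far from piRNA genes had 144 and 137 calls per Mb in replicate 1, and 95.7 and 102 in replicate 2. Near protein-coding 5′ ends the near and far densities were 198.8 and 246 in replicate 1, and 117 and 154 in replicate 2. In the remaining coding gene sequence they were 179 and 210, and 123 and 161. The density near piRNA genes was lower in both coding classes in each replicate, but the counting intervals of near and far sequence overlapped in all 3 classes. Sequence near piRNA genes had a GC content of 29.7% to 32.4% in these classes and sequence far from them 35.6% to 37.1%. The part of GC content in these differences was not tested.

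The strength of the cluster calls was close to that of the rest of the chromosome. Ranked by signal value in the whole list, the median cluster call stood at percentile 48.1 in replicate 1 and 49.9 in replicate 2, and the median call of the rest of chromosome IV at 49.0 and 50.3. The difference was −0.642 ± 0.268 percentile points (SD, n = 2). This mean changed sign in settings where the replicates had opposite signs. It was 0.488 when the left end of the chromosome was the comparison (−0.974 in replicate 1 and 1.95 in replicate 2). When ranks were taken among the strongest 10% of each list it was 0.394 (−5.84 and 6.63). In replicate 1 no cluster call was among the strongest 100 of the list, where the rest of the chromosome had 10, and the best cluster rank was 108. In replicate 2 there were 3 and 4, and the best cluster rank was 45. The strongest 10% of the list of replicate 1 included 98 cluster calls, 8.999% of them (interval 7.37 to 10.9), against 9.53% of the calls of the rest. In replicate 2 it included 57 (7.64%, interval 5.84 to 9.79), against 9.57%.

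Calls in the clusters overlapped between replicates about as often as elsewhere. In the whole list 24.1% of replicate 1 calls shared at least 1 bp with a replicate 2 call, and in the clusters 241 of 1089 did (22.1%, interval 19.7 to 24.7). In the other direction 33.9% of the whole list of replicate 2 overlapped a call of replicate 1, and 224 of the 746 cluster calls did (30.03%, interval 26.8 to 33.5). The rest of chromosome IV had 23.0% and 32.6%. The clusters were lower by 1.69 ± 1.19 points (SD over the 2 directions). Both directions count the same overlaps, so this SD is not a spread between independent values. The difference was −0.283 points when at least 50% of the shorter call had to be shared. A call of the same width placed at every cluster position in turn would overlap in 10.9% and 15.1% of cases, so the observed shares were 2.04 and 1.98 times that, and 1.85 and 1.88 times in the rest. One control library served for both lists, and its part in the overlap was not tested. Among the strongest 10% of the list of replicate 1, 36 of the 98 cluster calls (36.7%) overlapped a call of replicate 2, against 20.7% of the other cluster calls. In replicate 2 it was 23 of 57 (40.4%) against 29.2%. The rest of chromosome IV had the same order, at 36.0% against 21.6% in replicate 1 and 45.4% against 31.2% in replicate 2.

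Sites called in both replicates had a smaller share near piRNA genes than all calls of replicate 1, 48.1% against 57.9%. These 2 shares are not matched for GC content or repeats, and the part of either in the difference was not tested. There were 241 replicate 1 calls that overlapped a cluster call of replicate 2, with summits a median of 137 bp apart. A piRNA gene lay within 500 bp of 116 of them, a protein-coding 5′ end within 500 bp of 61 (25.3%), and 143 (59.3%) had the summit inside a protein-coding gene. The last 2 shares were close to those of all cluster calls of replicate 1, 23.8% and 57.6%. Of cluster positions, 18.7% and 49.4% had these. Of the 241, 4 ranked in the strongest 10% of both lists, and no such share for the rest of the chromosome is set beside it.

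Of the 26 pooled cluster calls, 26 overlapped a call of replicate 2 and 23 a call of replicate 1. By the deposited notes the pooled list derives from the alignments of both replicates. Overlaps with it, here and below, are therefore not independent. The ranks of the 26 ran from 76 to 651 of 670. The strongest stood next to a tRNA gene, and 4 of the 26 (15.4%) were within 500 bp of a tRNA gene, against 0.658% of cluster positions. In the single lists 21 cluster calls of replicate 1 (1.93%) and 20 of replicate 2 (2.68%) were this close to 1 of the 41 tRNA genes of the clusters. Outside the clusters the shares were 0.490% and 1.13%, against 0.275% of positions. Of the 64 pooled calls there, 5 (7.81%) were this close to a tRNA gene. The tRNA genes, which RNA polymerase III transcribes, had, within the clusters, the largest ratio of the share of calls to that of positions among tRNA, snoRNA, snRNA and miRNA genes in all 3 lists. The strongest windows are shown next so that the piRNA genes above can be set beside them. Each spans 121 bases around a pooled summit on the plus strand, with bases of a tRNA gene in capitals.
Window of the strongest pooled call (chrIV:16398303-16398423), Y65A5A.t1: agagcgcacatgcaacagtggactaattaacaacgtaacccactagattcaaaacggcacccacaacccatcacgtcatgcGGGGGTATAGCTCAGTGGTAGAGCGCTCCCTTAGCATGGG
Window of the second (chrIV:14822134-14822254), no gene: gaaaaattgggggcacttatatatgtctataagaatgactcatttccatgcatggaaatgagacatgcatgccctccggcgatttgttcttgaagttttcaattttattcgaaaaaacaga
Window of the fifth (chrIV:16400953-16401073), Y65A5A.t4: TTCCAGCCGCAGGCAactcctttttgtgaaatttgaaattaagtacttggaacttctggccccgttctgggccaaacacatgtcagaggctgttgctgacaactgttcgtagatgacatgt
Window of the eighth (chrIV:14433759-14433879), upstream of F55B11.4: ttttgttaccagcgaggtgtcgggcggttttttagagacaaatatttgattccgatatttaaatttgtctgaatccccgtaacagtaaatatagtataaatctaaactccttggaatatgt

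The strongest pooled call (16398128 to 16398597, signal value 41.3, summit 16398363) lay 21 bp from Y65A5A.t1, a gene for an alanine tRNA. Its calls ranked 114 in replicate 1, with a signal value of 19.3, and 324 in replicate 2, with 21.5. The fifth (summit 16401013, signal value 35.8) was 46 bp from Y65A5A.t4, a histidine tRNA gene. It ranked 132 in replicate 2 and 4797 in replicate 1. The seventh (summit 6556785, 34.5) was 33 bp from C43G2.t1, a leucine tRNA gene, and 370 bp upstream of try-3, which encodes a predicted serine peptidase. It showed the opposite order, at rank 108 in replicate 1 and 2460 in replicate 2. Of the 32-base words within 100 bp of these 3 summits, 20.6% to 30.6% occur elsewhere in the genome, so reads there may come from other tRNA gene copies. That share was 0 at the other 7 of the 10 strongest.

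The second pooled call and its neighbour, the third (summits 14822194 and 14822510, signal values 41.1 and 36.8) lay in intergenic sequence, with the 5′ end of sec-61.A nearest, and overlapped the same calls of each replicate. That site ranked 45 in replicate 2 and 1439 in replicate 1. The fourth (summit 4710465, 36.3) lay 72 bp upstream of a 5′ end of cif-1, a subunit shared by the COP9 signalosome and translation initiation factor eIF3. It ranked 272 and 417, so both replicates had it among their strong calls. The sixth (summit 16536339, 35.5) was in a coding exon of uroc-1, a putative urocanate hydratase gene, and 168 bp from the piRNA gene 21ur-5731. The ninth (summit 5947151, 33.6) was in a coding exon of rps-25, which encodes a protein of the small ribosomal subunit. It ranked 379 in replicate 2 and 12658 in replicate 1.

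The tenth pooled call (summit 5822146, signal value 33.3) lay 185 bp from 21ur-8307, the piRNA gene whose upstream word is shown above. It ranked 268 in replicate 1 and 8536 in replicate 2, so only replicate 1 had it among its strong calls. Of the 10 strongest pooled calls, the sixth, the eighth and the tenth were within 500 bp of a piRNA gene, as were 62.2% of cluster positions.

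Of the 15 sites with the best mean rank over both replicates, 12 overlapped a pooled call, 5 were near a piRNA gene and 5 near another small RNA gene. Of cluster positions, 62.2% were near a piRNA gene. The other small RNA genes were tRNA genes and a miRNA gene, with 0.658% and 0.316% of cluster positions near genes of these kinds. The best of the 15 sites were those at Y65A5A.t1 and cif-1. The fourth (summit 14433834) was 132 bp from 21ur-9842. It ranked 1125 in replicate 1 and 674 in replicate 2, the most even pair among the sites at piRNA genes. The eleventh (summit 13830631) lay in an intron, 67 bp from 21ur-2220. The upstream word of that piRNA gene lies within 100 bp of the summit, and the site ranked 736 and 3319. The tenth (summit 5719503) was 302 bp from 21ur-2999 and ranked 904 and 2894. The ninth (summit 5408063) was 440 bp from 21ur-8548 and ranked 819 and 2904. The remaining site of this kind was the one in uroc-1, with ranks 2278 and 152. The eighth site (summit 15931350) lay inside Y105C5B.t4, an aspartate tRNA gene, and ranked 3011 and 437.

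F55B11.4 itself lies in the right cluster (chromosome IV, 14429572 to 14430920, minus strand). RefSeq describes its product as a UPAR/Ly6 domain-containing protein. Within 20 kb of it were 13 calls of replicate 1 and 7 of replicate 2, which is 314 (interval 167 to 538) and 169 (interval 68.1 to 349) per Mb. The cluster means of 176 and 120 lie within these intervals. In the pooled list the window had 48.4 calls per Mb (interval 5.86 to 175), which rests on 2 calls. The pooled cluster mean of 4.19 lies below that interval. Of the pooled calls, 2 were in this window: the eighth (summit 14433819, signal value 34.3), 2899 bp upstream of its 5′ end and 147 bp from 21ur-9842, and the nineteenth (summit 14430360, 29.5), in its intron and 7 bp from 21ur-11493. The replicate calls under the eighth ranked 1125 and 674. The strain carries the tagged copy as well as its own, and the part of the extra copy in these calls was not tested.

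The genes that make and use piRNAs are scattered over the genome and were examined at their 5′ ends. They include prg-1 itself and genes of piRNA transcription such as prde-1, snpc-4, tofu-4 and tofu-5. Also included are the processing genes parn-1, henn-1, tofu-1, tofu-2, pid-1 and erh-2, and silencing genes such as hrde-1 and mut-16. The list examined also had tost-1. Of 19 found in the annotation, 3 had a call of replicate 1 within 500 bp of a 5′ end and 4 one of replicate 2. Among all 19865 protein-coding genes these shares were 23.8% and 17.3%. Only tofu-1 had a call in both, at ranks 15649 and 14165, and 6.68% of all protein-coding genes had both. The best ranks at these genes, picked out after their values were seen, were 855 at attf-6 in replicate 1 and 2541 at erh-2 in replicate 2. No pooled call was near any of the 19. Among protein-coding genes of the clusters, 223 of 934 (23.9%) had a call of replicate 1 at a 5′ end, 150 (16.1%) one of replicate 2 and 63 (6.75%) both. Outside the clusters these shares were 24.1%, 17.6% and 6.69%.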

How the data were processed

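The data were ChIP-seq peak lists of 2 replicates and of their pool on build ce11. The deposited lists give each call a signal value, a score written by the authors' peak caller, and the −log10 of a q-value; the sources used here do not name the caller, the aligner or the thresholds. Per the deposited notes, both replicates were called against 1 shared control library, which was not analysed here. Call width was nearly constant (490 bp in replicate 1, 470 bp in replicate 2), so summits were used. The deposited ce10 lists were not used.

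Genes came from the Ensembl release 115 annotation and sequence from RefSeq, both of assembly WBcel235. Near means within 500 bp. Shares of calls were set beside the share of all positions with the same property, counted over every base. Promoters reached 500 bp upstream from protein-coding 5′ ends. GC content was taken within 100 bp. A position was repeated where over 50% of the 32-base words within 100 bp occur elsewhere in the genome. Named were the 10 strongest pooled cluster calls, the 15 sites shared by both replicates with the best mean rank, F55B11.4 and the piRNA pathway genes; 1 of the 20 listed pathway genes (tofu-3) was not matched. Other calls and genes named beside them were chosen after their values were seen.

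The clusters and the rest of the chromosome were compared within each replicate. No test was made, since 2 replicates allow no two-sided exact p below 0.5. Values are means ± SD over the 2 replicates, or for replicate overlap over the 2 directions of the comparison, which are not independent. The numbers of reads were not analysed here. The members, lists and alternatives were chosen with earlier results of these data known. The functions were checked on simulated calls. Python 3.11.15, numpy 2.4.6, scipy 1.17.1 and matplotlib 3.10.9 were used.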

Additional observations from a re-analysis of the deposited data

How the results depend on the processing

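There were 55 alternatives to the 5 measures, taken as means over both replicates, or as 1 replicate where the other was left out. The overlap measure needs both lists, so for it this step kept 1 direction of the comparison and left out no replicate. In these values the density ratio and the differences in replicate overlap and at protein-coding 5′ ends kept their direction. The difference in rank and that at piRNA genes did not. Some means that kept their direction lay within their SD of no difference. These included the density ratio within GC ranges without repeats (0.999 ± 0.00703). They also included the overlap difference at 50% of the shorter call (−0.283 ± 0.414) and the difference at coding 5′ ends against the left end (−2.83 ± 2.90). In replicate 2 the density ratio reached 1.004 within GC ranges without repeats. For its calls the overlap difference was 0.0103 when 50% of the shorter call had to be shared. No paired analysis was possible because the series has 1 group and so no pairs of samples; the clusters and the rest were compared within each replicate. Leaving out either replicate gave a density ratio of 0.856 to 0.884 and a rank difference of −0.831 to −0.452 points. The difference at piRNA genes was then −6.27 to −4.32 and that at coding 5′ ends −7.22 to −3.92. The overlap difference was −0.854 for the calls of replicate 1 and −2.53 for those of replicate 2, each counted against the other list.

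Among the strongest 10% of each list the density ratio was 0.759, the rank difference 0.394 ± 8.82 (SD, n = 2), the overlap difference −2.999 and the difference at piRNA genes −16.5. For this overlap difference both lists were cut to their strongest 10%. The overlap shares given earlier for the strongest 10% took any call of the other list. Against the other nuclear chromosomes the ratio was 0.829, the rank difference −1.05, the overlap difference −3.16 and the difference at coding 5′ ends −2.66. Against the left end of chromosome IV these were 0.894 for density, 0.488 for rank and −2.83 for coding 5′ ends, and against the centre the rank difference was −2.06. The rank difference was −1.16 with summits thinned to 500 bp, −1.79 with clusters set as 100 kb bins of at least 20 piRNA genes, and −0.321 by q. The overlap difference was −0.283 ± 0.414 (SD, n = 2) at that overlap. The difference at coding 5′ ends was −2.17 at 100 bp, −2.92 at 250 bp and −8.24 at 1000 bp. With repeated sequence left out the difference at piRNA genes was −9.83. Within GC ranges, an alternative chosen after seeing the data, the density ratio was 0.964 and the difference at piRNA genes 1.35; with repeats left out as well they were 0.999 and −2.16. The causes of these shifts were not tested. The comparison with other chromosomes does not enter the measure at piRNA genes. The 2 replicates and the unknown read depth limit every value.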

Other observations

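Small RNA genes other than tRNA and piRNA genes were met by few cluster calls. Of the 18 snoRNA genes in the clusters, summits of 3 calls of replicate 1 (0.275%) and 4 of replicate 2 (0.536%) lay within 500 bp, against 0.336% of positions. In the rest of chromosome IV, which has 41 snoRNA genes, the shares were 0.713% and 1.07%, against 0.393% of positions, and 7 of the 64 pooled calls there were near one, while none of the 26 pooled cluster calls was. At the 16 snRNA genes of the clusters the shares were 0.275% and 0.536% (3 and 4 calls) against 0.266% of positions, and 1 of the 26 pooled cluster calls was near one. At the 19 miRNA genes they were 0.367% and 0.268% (4 and 2 calls) against 0.316% of positions.

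Along the clusters, the counts of calls in 62 bins of 100 kb ran from 7 to 27 in replicate 1 and from 4 to 20 in replicate 2, with medians of 17.5 and 12. All bins of a replicate come from the same library, and a bin has the same base composition in both replicates. Across the bins the counts of the replicates had a Spearman correlation of 0.422. With the number of piRNA genes it was −0.140 in replicate 1 and −0.245 in replicate 2, and with GC content 0.233 and 0.273.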
